A study of Mus musculus with 14 samples.

Results

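Highly methylated yet acetylated bins were 200-bp windows in which the DNA bound by H3K27ac carried high 5mC in differentiated cells. They were chosen by values of the H3K27ac library and peak list of differentiated cells, as bins that overlapped a peak of the H3K27ac list of differentiated cells by at least 1 bp, had at least 30 CpG counts in the H3K27ac library of those cells, and reached 60% 5mC or more in that library. A CpG count is 1 reading of 1 CpG in 1 read, so a bin with many CpGs reaches the minimum with fewer reads. The rule found 20941 bins among 151981 bins of these peaks that met the count minimum (covered bins), among 1152809 peak bins with any count, and among 7282466 bins with a count in any of the 8 count files used. Of the other covered bins, 37966 lay at 20% to under 60% 5mC (partly methylated bins) and 93074 under 20% (unmethylated bins, the UMR range).

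H3K27ac is an acetyl mark laid down on active enhancers and promoters, and H3K4me1 marks enhancers whether active or poised. DNA methylation at CpGs is usually low where regulatory DNA is in use, and active promoters and CpG islands are mostly unmethylated. Enhancers often carry intermediate levels, since methylated and unmethylated copies coexist in a population of cells. ChIP followed by bisulfite sequencing (ChIP-BS-seq) reads 5mC on the same molecules that the antibody pulled down, so a high level in the H3K27ac library is a level of nucleosomal DNA recovered with that antibody.

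All libraries came from the male mouse ESC line R1. It was sampled as ESCs, 2 days after 2i was withdrawn, as differentiated cells, treated with retinoic acid at 1 µM for 4 days, and as XEN cells, an extraembryonic endoderm-like state made from ESCs in 9 days with 0.1 µM retinoic acid and Activin A. For ESCs and differentiated cells 1 count file per mark was analysed, called a library here. The study repeated its experiments, but the sources used here do not say how many repeats went into each of these files. Their values therefore carry no replicate error. For XEN cells there were 2 replicate libraries per mark, and nothing in the sources used here says that they came from separate cultures. The libraries held 32305709 to 58803653 CpG counts in ESCs and differentiated cells and 12147115 to 31345707 in XEN cells.

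The marks of the XEN libraries are uncertain, because labels and file names disagree on them. Here each XEN library goes by its label and is called a library labelled with a mark. The measured placement of counts went against the labels. In differentiated cells, bins in H3K4me1 peaks but in no H3K27ac peak held 20.4% of the counts of the H3K4me1 library and 6.67% of those of the H3K27ac library. In XEN cells the same bins held 6.60% and 7.52% in the libraries labelled H3K4me1, and 16.7% and 17.6% in those labelled H3K27ac. Any direction drawn below between XEN marks would turn if the labels were exchanged.

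The chosen bins had a median 5mC of 71.8% in the H3K27ac library (quartiles 65.6% and 79.0%), as the rule required of them. Of these, 4872 (23.3%) reached 80% and 26 had no unmethylated count. They made up 13.8% of the covered bins (exact 95% binomial interval, Clopper-Pearson, 13.6% to 14.0%, which covers counting error only). Counts per bin were low, with a median of 39 against 45 in partly methylated and 84 in unmethylated bins, and 459 of them had 100 counts or more. The exact lower bound of a bin's own 5mC was at 60% or more for 7446 bins (35.6%) and at 50% or more for 15303 (73.1%), so many of the bins cannot be placed above the threshold one by one.

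The share of covered bins that were highly methylated fell with depth. It was 28.9% of bins with 30 to 39 counts, 18.2% with 40 to 59, 7.94% with 60 to 99 and 1.07% with 100 or more. The number of bins therefore depends on the count minimum. Just inside the threshold, 2098 bins at 60% to under 62% had a median of 63.4% in the H3K4me1 library of the same cells, and 1662 bins just outside, at 58% to under 60%, had 61.9%. The 5mC of covered bins formed no separate group above 60%, and the histogram ran on from the partly methylated range without a gap.

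**Figure D1:**
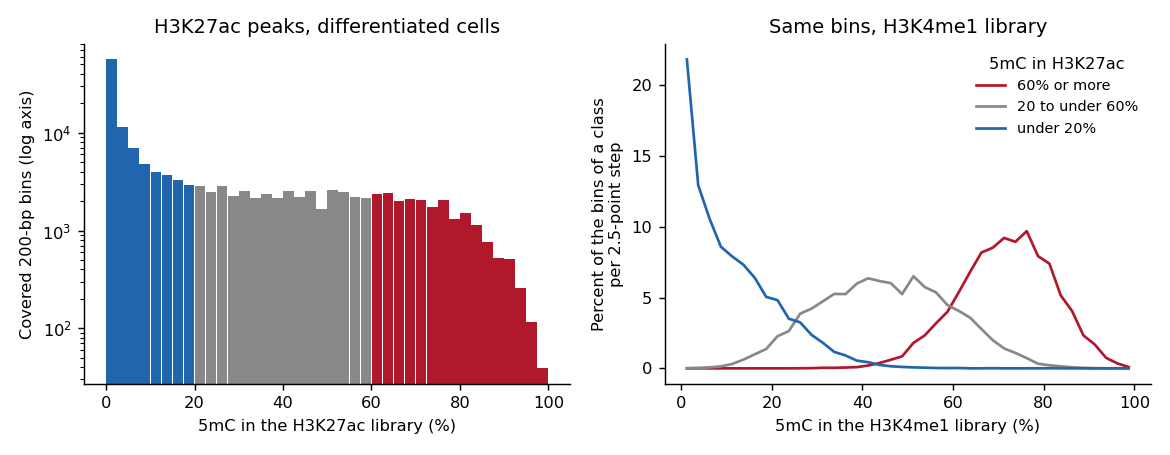
Left, the number of covered 200-bp bins in H3K27ac peaks of differentiated cells (log axis) by 5mC in the H3K27ac library, in steps of 2.5 points, coloured by class: under 20%, 20% to under 60%, and 60% or more. Right, the distribution of the same bins over 5mC in the H3K4me1 library of the same cells, as percent of each class: the 18637 highly methylated bins covered there centre on 72.0%, the partly methylated ones on 44.9% and the unmethylated ones on 8.82%.

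The host peaks were wide and high in the list. Of 102600 peaks, 29449 had a covered bin and 10103 of these held at least 1 highly methylated bin. The median width was 4862 bp for host peaks and 2925 bp for the 19346 peaks with covered bins but no member. Peaks were ranked by the score HOMER gave them, and the median percentile of the score was 89.3 for host peaks and 81.4 for the others. Width and score come from the library that chose the bins, and a wider peak has more bins in which to find a member, so these values are a description.

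Most host peaks, 6327 (62.6%), held a single highly methylated bin, and 724 (7.17%) held 5 or more. In 3638 host peaks (36%) every covered bin was highly methylated, but these peaks had a median of 1 covered bin each and only 228 of them had 3 or more. In 3869 host peaks (38.3%) highly methylated bins stood in the same peak as unmethylated ones. Pooled over all their bins, the host peaks had 38.4% 5mC in the H3K27ac library, 33.3% without the chosen bins, and the covered peaks without such a bin had 12.4%.

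Among bins that met the count minimum, the share of highly methylated ones rose with peak width. Of covered bins, 8.67% were highly methylated in peaks under 2 kb, 9.58% in peaks of 2 to 5 kb, 13.8% at 5 to 10 kb, 17.0% at 10 to 20 kb and 27.4% (26.8% to 28.1%) at 20 kb or more. The 516 host peaks of 20 kb or more held 4518 of the bins, or 21.6%. Of the 567 peaks of that width with a covered bin, 91.0% were hosts, against 16.7% of those under 2 kb. Pooled 5mC over all bins of the peaks, a different measure with no count minimum, did not follow this order throughout. In H3K27ac it was highest in peaks under 2 kb. In the same order of width, pooled 5mC was 46.2%, 25.8%, 25.7%, 27.4% and 35.1% in H3K27ac, and 54.1%, 49.9%, 51.3%, 52.5% and 56.8% in H3K4me1.

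Highly methylated bins lay a median of 1324.5 bp from the centre of their peak, partly methylated bins 962 bp and unmethylated bins 695 bp. With 1 bin per peak, the one with most counts, the medians were 745.5 bp, 585.75 bp and 395.5 bp. As a percent of the way from centre to edge the medians were 36.3%, 33.9% and 32.9% over all bins. With 1 bin per peak the relative gap was wider, at 34.9%, 31.3% and 25.6%. The order depended on the width of the peak. In peaks of 2 to 5 kb the highly methylated bins lay farther out, at a median of 32.7% of the way to the edge against 25.6% for unmethylated bins. In peaks of 20 kb or more they lay nearer the centre, at 39.5% against 65.5%, and at 10 to 20 kb the medians were 39.8% and 51.8%. In the 3869 peaks that held both kinds, the highly methylated bins were on average farther out in 2264 (58.5%), with a median difference of 278 bp.

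The same turn is seen along the peak. In peaks of 20 kb or more, 34.0% of covered bins in the innermost 10% of the way to the edge were highly methylated and 13.9% at 80% to 90% of the way, where 68.0% were unmethylated, with 16.7% in the outermost 10%. In peaks of 2 to 5 kb the share rose from 7.16% in the innermost 10% to 22.4% in the outermost, which held 170 covered bins. The H3K4me1 library, which the rule did not use, was read over all bins with no count minimum. Its pooled 5mC in peaks of 20 kb or more was 58.7% in the innermost 10% and 51.9% at 80% to 90% of the way, and was back at 56.7% in the outermost 10%, while in peaks of 2 to 5 kb it was 44.7%, 59.3% and 63.0% at these 3 steps.

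**Figure D2:**
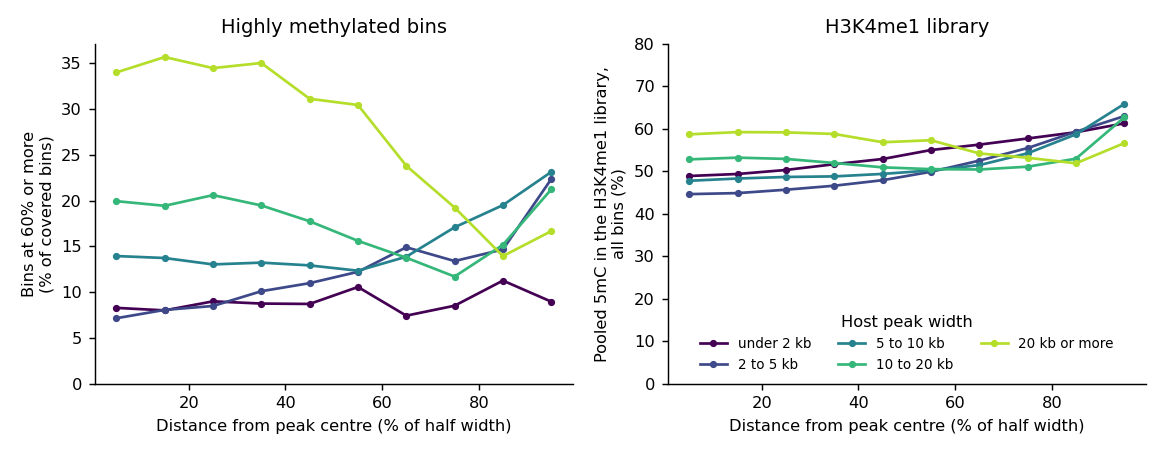
Left, highly methylated bins as percent of covered bins, by distance from the centre of the host peak (percent of the way from centre to edge, in steps of 10 points), with 1 line per class of peak width. Right, pooled 5mC of all bins of the same peaks in the H3K4me1 library of differentiated cells. In peaks of 20 kb or more the left line falls from 34.0% to 13.9% before the last step, and in peaks of 2 to 5 kb it rises from 7.16% to 22.4%.

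The bins formed 17846 runs of adjacent bins, of which 15410 were single bins, and 5531 bins (26.4%) had a highly methylated neighbour. Coverage limited these runs, since 13.2% of peak bins with a count met the count minimum and 9148 of the bins (43.7%) had a covered neighbour. Of the 11075 neighbouring positions that were covered, 55.9% were highly methylated, against 13.8% of all covered bins. Pooled over adjacent bins at any coverage, 5mC was 60.5% upstream and 60.1% downstream in H3K27ac, and 63.9% and 63.6% in H3K4me1. The longest run had 8 bins (1600 bp), at chr10:120805801-120807400 (mm9), in a peak of 8358 bp whose 5mC in the H3K27ac library ranged over the run from 61.9% to 84.8% and in the H3K4me1 library from 70.8% to 81.8%. In ESCs the H3K4me1 library had 44.2% to 75.0% there, on 8 to 77 counts per bin. Across 1000 bp on either side of a highly methylated bin, pooled 5mC in the H3K27ac library dropped from 72.4% to about 45%, at 44.9% upstream and 45.1% downstream, whereas in the H3K4me1 library it dropped from 71.2% to 58.3% on both sides. The value at the bin in H3K27ac was fixed by the rule, and farther out H3K27ac was lower than H3K4me1 by more than 10 points. In the ESC libraries, which the rule did not use, pooled 5mC at the bin was 40.6% in H3K27ac and 40.5% in H3K4me1. At 1000 bp upstream it was 31.5% and 37.6%. Scaled counts peaked at the bin in these libraries too. The count minimum favours bins with many CpGs, which raises counts there in any library.

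**Figure D3:**
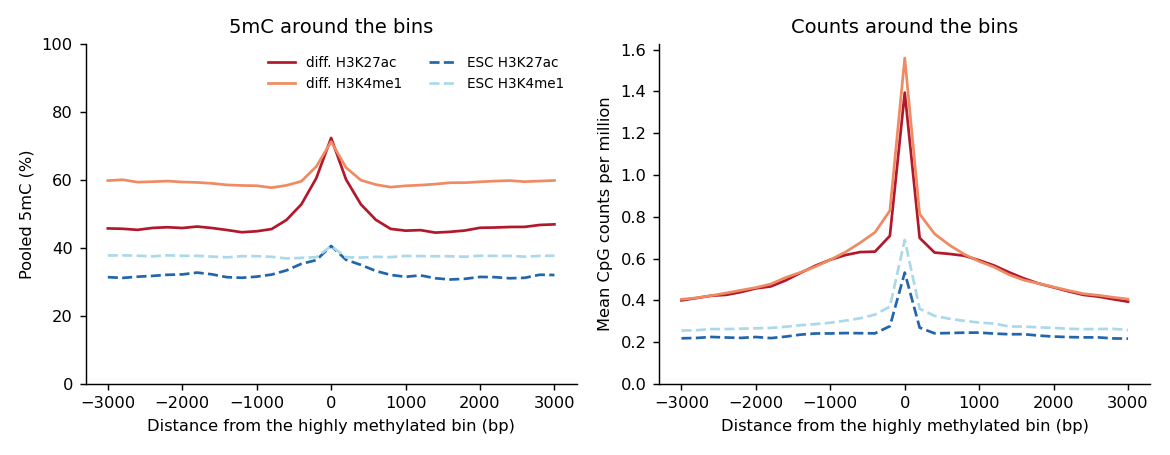
Pooled 5mC (left) and mean CpG counts scaled to library size (right) in 200-bp steps up to 3000 bp on either side of the 20941 highly methylated bins, with 1 line per library of differentiated cells (solid) and ESCs (dashed). 5mC in the H3K27ac library of differentiated cells falls from 72.4% at the bin to 44.9% at 1000 bp upstream, and the ESC lines stay between 30.7% and 40.6%.

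The largest groups of these bins lay in very wide acetylated domains. The peak at chr8:11194072-11428331 (mm9, 234260 bp), ranked 1 in the list, held 168 of them among 318 covered bins, with 54 unmethylated bins. Its unmethylated bins sat close to the centre, at a median of 2900 bp from it, and its highly methylated bins at 58401 bp. Pooled over the 168 bins, 5mC was 74.0% in H3K27ac and 72.6% in H3K4me1 of differentiated cells, 60.7% and 50.0% in the same marks of ESCs, and between 78.2% and 79.7% in the 4 XEN libraries. ESCs had little signal there, with 877 counts over the 168 bins in H3K27ac against 7392 in differentiated cells, and 13 of the 168 bins overlapped an H3K27ac peak of ESCs.

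The peak ranked 2, chr1:191558816-191708959 (150144 bp), held 151 highly methylated and 17 unmethylated bins. Pooled 5mC of the 151 was 75.8% in H3K27ac, 74.5% in H3K4me1, 48.6% and 47.9% in ESCs, and 82.3% to 83.6% in XEN libraries. The peak ranked 3, chr17:68025980-68177862 (151883 bp), had 103 such bins at a median of 24179.5 bp from its centre and 49 unmethylated ones at 54020.5 bp. In it the highly methylated bins were at 75.3% and 73.2% in the marks of differentiated cells, 72.2% and 55.8% in those of ESCs, and 81.7% to 83.0% in XEN cells. The 3 domains lay closer together in differentiated cells than in ESCs, and the XEN levels of the first lay below those of the other two.

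H3K4me1 was present at nearly all of the bins. Of the 20941, 95.5% (95.2% to 95.8%) overlapped a peak of the H3K4me1 list of differentiated cells, as did 99.4% of partly methylated and 76.6% of unmethylated bins. Scaled to library totals, with 1 count added, the median log2 ratio of H3K27ac to H3K4me1 counts was -0.11 at highly methylated, -0.01 at partly methylated and 2.30 at unmethylated bins. The highly methylated bins thus had about as many scaled counts in one mark as in the other, and unmethylated bins had far more in H3K27ac. The rule set a count minimum in H3K27ac and none in H3K4me1, which raises the ratio in all classes, so it is a description.

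The 5mC level was also high in the H3K4me1 library. Of 18637 bins covered there, 86.4% (85.9% to 86.9%) were at 60% or more and none was under 20%, with a median of 72.0% (quartiles 64.7% and 78.9%). The difference of H3K4me1 from H3K27ac had a median of -0.51 points, against 5.44 in partly methylated and 2.77 in unmethylated bins. Because the bins were picked for high values in H3K27ac, that difference is pushed down by the choice and was not tested. Seen from the other mark, 22074 covered bins were at 60% or more in H3K4me1 and 73.0% of them were so in H3K27ac. Levels in the library not used rose with the level that chose the bins: the median in H3K4me1 was 66.7% for bins at 60% to under 70% in H3K27ac, 73.9% at 70% to under 80%, 79.4% at 80% to under 90%, and 84.0% at 90% or more.

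Before differentiation these bins had fewer peaks and counts. An H3K27ac peak of ESCs was overlapped by 54.2% (53.5% to 54.8%), against 62.8% of partly methylated and 89.3% of unmethylated bins. An H3K4me1 peak of ESCs was overlapped by 69.7%, and 25.8% (5400 bins) lay in no ESC peak of either mark, against 17.6% and 3.22% in the other classes. The median log2 ratio of counts of differentiated cells over ESCs was 2.01 in H3K27ac and 1.47 in H3K4me1, where partly methylated bins had 1.95 and 0.99 and unmethylated bins 0.49 and 0.41. The first ratio contains the count minimum of the rule, which raises it in all classes.

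ESC levels of 5mC were lower than those after differentiation. In the H3K4me1 library of ESCs, 10238 of the bins were covered, with a median of 41.0% (quartiles 26.8% and 54.8%). In the H3K27ac library of ESCs only 3358 bins (16%) were covered, and their median was 27.3%. Coverage there favoured bins with an ESC peak. Pooled regardless of coverage, and leaving aside bins in an ESC peak of H3K27ac only, 5mC in H3K27ac of ESCs was 34.4% for bins in ESC peaks of both marks (10406 bins), 58.4% for those in an H3K4me1 peak only, and 70.9% for those in neither. The H3K4me1 library of ESCs gave 36.4%, 51.4% and 65.1% for the same sets. In differentiated cells the H3K4me1 library was at 70.4%, 70.9% and 72.5% for them, a smaller spread between the sets than in ESCs. The bins were chosen as high in another library of the same cells, which narrows that spread.

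The H3K4me1 libraries of differentiated cells and ESCs, neither used by the rule, were compared bin by bin with Fisher's exact test (two-sided, Benjamini-Hochberg adjusted over all 205241 bins with at least 30 counts in both). With 1 count file per state, the test compares these libraries and not the states. It takes each CpG count as independent, which CpGs of 1 read are not. Of 9012 highly methylated bins tested, 6230 (69.1%) were higher in differentiated cells at an adjusted p under 0.05, where 47.7% of all bins tested and 40.6% of covered bins of the same peaks were, and 18 were lower, where 1.84% and 3.86% were. The median difference was 29.6 points (quartiles 16.4 and 43.1), against 17.4 over all bins tested, and it was above 0 in 94.5% of the bins. Partly methylated bins were higher in 57.1% and lower in 2.85%, and unmethylated bins in 19.8% and 5.70%. The bins were chosen as high in another library of the same cells, so the gap to all bins is a description. Of the 20941 bins, only these 9012 had the counts in both libraries. In the values pooled regardless of coverage, given above, bins in no ESC peak rose less than bins in ESC peaks of both marks. The tested bins therefore need not stand for the rest.

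Of the 9012 bins, 1444 (16%) had been under 20% in ESCs, 6001 (66.6%) between 20% and 60%, and 1567 (17.4%) at 60% or more. The bins that started under 20% were mostly acetylated already, since 96.7% of them overlapped an H3K27ac peak of ESCs, against 64.1% of those that started at 60% or more. They also lay in wider peaks, with a median of 11049 bp against 8570 bp, and farther from the centre, at 1849 bp against 1358 bp. Their median in H3K4me1 went from 12.8% in ESCs to 64.9%, and that of bins at 60% or more in ESCs from 66.7% to 75.8%.

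**Figure D4:**
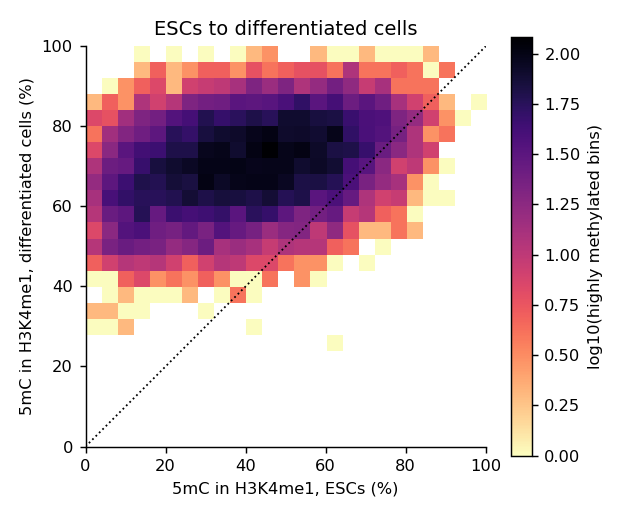
Each square counts, on a log10 colour scale, the highly methylated bins with a given 5mC in the H3K4me1 library of ESCs (x axis, %) and of differentiated cells (y axis, %), for the 9012 bins covered in both. The dotted line marks equal levels, and 94.5% of the bins lie above it, with a broad spread from left to right and a narrow one from bottom to top.

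Among the 248 bins with at least 100 counts in H3K27ac and at least 30 in both H3K4me1 libraries, 140 were higher in differentiated cells and 4 were lower, where 23.9% and 5.83% of the 11471 bins with the same numbers of counts, in peaks or not, were. The largest rise was at chr9:110853801-110854000, 757 bp from the centre of a peak of 6360 bp. There 5mC was 1.26% of 238 counts in H3K27ac and 1.64% of 61 in H3K4me1 of ESCs, 68.3% of 101 and 70.3% of 91 in differentiated cells, 77.5% and 84.3% in the XEN libraries labelled H3K27ac, and 65.5% and 73.8% in those labelled H3K4me1. The rise in H3K4me1 was 68.7 points (adjusted p = 2.83e-17, Fisher's exact test). This bin had more counts in H3K27ac of ESCs than in differentiated cells and was acetylated in both, with 5mC low before and high after.

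A bin at chr17:30739201-30739400, in a peak of 19805 bp, went from 2.92% in H3K27ac and 8.18% in H3K4me1 of ESCs to 65.0% and 72.8%, and lay between 79.5% and 96.0% in XEN libraries (difference in H3K4me1 64.6 points, adjusted p = 5.18e-37, Fisher's exact test). At chr7:80669601-80669800 none of 152 counts in H3K27ac of ESCs was methylated, and 63.0% of 119 were in differentiated cells. In H3K4me1 that bin rose from 3.57% to 67.4%, with XEN libraries from 75.6% to 87.5%. At chr16:24392001-24392200 H3K4me1 rose from 18.9% to 82.2%, with 10.5% and 70.4% in H3K27ac. These 4 bins all overlapped ESC peaks of both marks, and no level in differentiated cells overlapped the interval of the ESC level in the same mark.

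The 4 bins that passed with a fall were smaller changes. At chr3:102000201-102000400, 470 bp from the centre of a peak of 18584 bp, H3K4me1 went from 69.3% of 88 counts in ESCs to 53.7% of 188 (adjusted p = 0.0382, Fisher's exact test), and the 4 XEN libraries lay between 44.9% and 53.1%. The other 3, at chr9:35112801-35113000, chr2:98503001-98503200 and chr2:98507201-98507400, were also 3 of the 4 bins with the most counts in H3K27ac. They had 218 to 287 counts in each of the 4 libraries of ESCs and differentiated cells, and up to 51510 counts in 1 XEN library, and sat in peaks of 1250 to 2212 bp against a median of 4862 bp for host peaks. Their counts in ESCs and differentiated cells were at like levels for both marks, and whether their sequence is repeated in the genome was not tested. The remaining bin with most counts, chr14:8768401-8768600 in a peak of 68732 bp, had 247 counts at 64.0% in H3K27ac, 59.3% in H3K4me1, and 27 counts at 63.0% in H3K27ac of ESCs.

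Among the same 248 bins, the least methylated in H3K4me1 were at chr2:68771601-68771800 (60% of 115 counts in H3K27ac, 44.9% of 127 in H3K4me1), chr2:155430001-155430200 (60% and 47.5%) and chr10:117155401-117155600 (65.2% and 48.6%). The first and the third had been at 11.4% and 16.7% in H3K4me1 of ESCs, and the second at 52.5% of 40 counts. The highest levels in H3K4me1 among the 248 were 89.7% at chr11:3032001-3032200, 87.8% at chr2:69368001-69368200 and 87.2% at chr16:95904601-95904800, where H3K27ac had 69.5%, 71.5% and 90.2%. The first of these rests on 39 counts in H3K4me1 (interval 75.8% to 97.1%).

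Calls between the marks in ESCs were few, as they were over all bins tested. Of 3133 bins covered in both ESC libraries, 2 (0.0638%) were higher and 1 (0.0319%) lower in H3K4me1 by Fisher's exact test at an adjusted p under 0.05, where 0.0853% and 0.0146% of all bins tested were and 0.0856% and 0.00856% of covered bins of the same peaks. Their medians were 26.8% in H3K4me1 and 26.0% in H3K27ac, and the median difference was 0.75 points (quartiles -5.32 and 5.77). With a median of 47 counts in H3K27ac, a difference of a few points in 1 bin is not detectable at this depth.

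XEN cells had high 5mC at the same bins in all 4 libraries. The medians of covered bins were 78.6% and 79.4% in the libraries labelled H3K4me1 (3961 and 5508 bins) and 79.6% and 79.5% in those labelled H3K27ac (14912 and 16723 bins). The same bin differed between replicates by a median of 6.58 points in the first pair and 5.21 points in the second. Partly methylated bins had medians of 48.1% to 57.5% in the 4 libraries and unmethylated bins 0% to 17.9%, so the order of the classes was the same in each XEN library. Of 13207 bins covered in both marks with replicates summed, 12036 (91.1%) were at 60% or more in both and 2 were under 20% in both. Taken 1 mark at a time, 21.5% of all covered bins of the same peaks were at 60% or more in the libraries labelled H3K4me1. In those labelled H3K27ac 34.0% were. The XEN level also followed the level in differentiated cells: with libraries labelled H3K27ac, the median was 75.6% for bins at 60% to under 70% in H3K27ac of differentiated cells and 87.8% for bins at 90% or more.

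**Figure D5:**
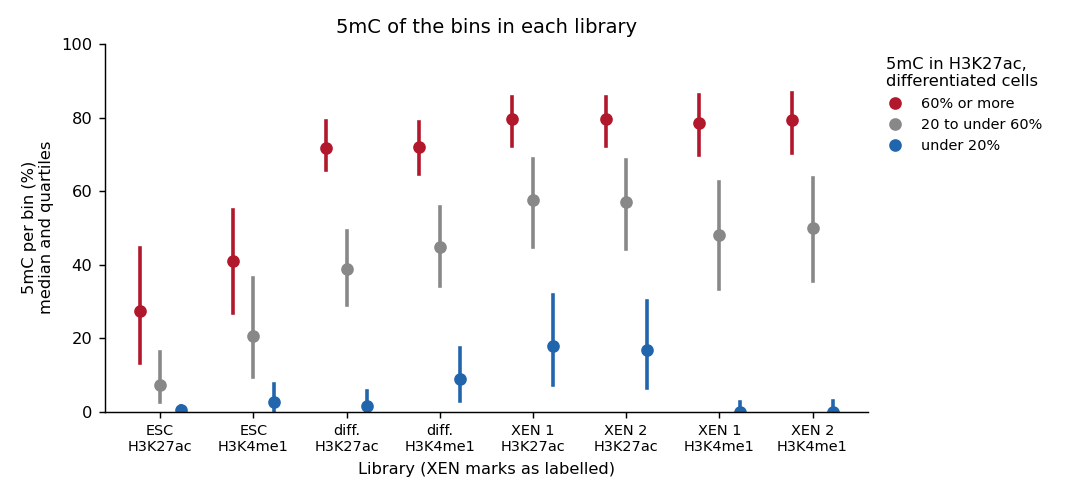
Median (point) and quartiles (line) of 5mC per bin in each of the 8 libraries, for bins at 60% or more, at 20% to under 60% and under 20% in the H3K27ac library of differentiated cells, counting bins with at least 30 counts in the library shown. The first class is at 27.3% and 41.0% in ESCs and between 78.6% and 79.6% in XEN libraries, and the order of the classes in the column of H3K27ac of differentiated cells was fixed by the rule.

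XEN levels differed little between bins that had been low and high in ESCs. Bins under 20% in H3K4me1 of ESCs had a median of 79.2% in the libraries labelled H3K27ac and 78.0% in those labelled H3K4me1, and bins at 60% or more had 82.1% and 80%. The summed XEN libraries labelled H3K27ac were compared with H3K27ac of ESCs by Fisher's exact test, requiring both replicates on the same side. Of 2770 bins tested, 2515 (90.8%) were higher in XEN cells, where 67.0% of all bins tested and 56.2% of covered bins of the same peaks were, and 5 were lower, where 0.357% and 0.473% were. The medians were 81.5% in XEN cells and 25.0% in ESCs. Partly methylated bins were higher in 92.3% of 9038, a like share. With the marks exchanged, 2048 of 2455 (83.4%) were higher and 3 were lower, where 25.4% and 1.28% of all bins tested were.

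Against H3K4me1 of differentiated cells, the XEN libraries labelled H3K4me1 were higher in 590 of 12636 bins (4.67%, with 4.73% over all bins tested and 5.29% over covered bins of the same peaks) and lower in 102 (0.81%, with 1.81% and 2.17%). The medians were 78.4% and 72.5%, the median difference 5.18 points, and 68.5% of the bins lay above 0. The share called higher was near that of all bins tested. With the marks exchanged, 2326 of 17918 bins (13.0%) were higher and 87 (0.486%) lower, near the 13.5% and 0.556% of all bins tested.

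Between the XEN marks, H3K4me1 as labelled was higher than H3K27ac in 6 of 13207 bins, with 0.0453% over all bins tested and 0.0417% over covered bins of the same peaks, and lower in 57 (0.43%), with 0.998% and 1.37%. The median difference was -1.38 points (quartiles -6.82 and 3.82), and partly methylated bins had -4.06. By permutation, 2 libraries against 2 cannot give a p below 0.333, so the test is over counts only. Of the 248 bins, 192 also had at least 30 counts in each XEN library, and these were ordered by the summed libraries labelled H3K27ac. The lowest in that order was chr5:116322401-116322600, at 48.4%, 28 bp from the centre of a peak of 5514 bp, where the 4 libraries gave 44.9% to 50.5% against 65.9% and 70.5% in the marks of differentiated cells. Next came chr16:30504001-30504200, at 49.7%, where the libraries labelled H3K27ac gave 44.2% and 55.7% and those labelled H3K4me1 33.3% and 18.6%, with 60.8% and 56.1% in differentiated cells. The bins at chr3:102000201-102000400 and chr2:155430001-155430200, given above, followed at 50.8% and 51.9%.

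The highest of the same 192 bins were at 91.1% at chr16:44101201-44101400, 90.6% at chr3:101399801-101400000, 90.1% at chr15:77637001-77637200 and 88.7% at chr16:28885801-28886000, summed over the libraries labelled H3K27ac. The first had been at 13.8% in H3K27ac and 23.9% in H3K4me1 of ESCs and at 76.7% and 79.4% in differentiated cells, and its 4 XEN libraries lay between 87.1% and 92.5%. The third lay 643 bp from the centre of a peak of 92500 bp ranked 5 and was at 78.2% and 79.7% in differentiated cells.

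The bins were rare on the X chromosome. There 105 of 3091 covered bins (3.4%, interval 2.79% to 4.10%) were highly methylated, against 14.0% of 148864 on the autosomes, where the lowest chromosome had 11.2% (chromosome 7) and the highest 17.3% (chromosome 15). Median counts of covered bins were 60 on both. In the H3K4me1 library of differentiated cells, 12% of 1041 covered X bins of the same peaks were at 60% or more, against 23.0% on the autosomes, and pooled over all peak bins 5mC was lower on the X in each of the 8 libraries, for example 45.6% against 52.0% in H3K4me1 of differentiated cells and 24.9% against 31.8% in ESCs. R1 cells carry a single X, and its part in the difference was not tested.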

How the data were processed

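ChIP-BS-seq count files of H3K4me1 and H3K27ac and HOMER peak lists of ESCs, differentiated cells and XEN cells were used (8 count files, 4 peak lists of ESCs and differentiated cells). Per the labels and the study's methods, the authors aligned reads to mm9 with Bismark and Bowtie, dropped reads with mixed CpG states, and deposited unscaled counts per 200-bp bin, 1 column for methylated CpGs and 1 for unmethylated ones. Peaks were called by the authors with HOMER (local and clonal filtering off). Versions are not given in the sources used here. The deposited peak score was used only to rank peaks, and other peak columns that the authors deposited were not needed beyond position. The methylated column was taken as the one rare on mitochondrial DNA, and its order is reversed in XEN files, which list bins from 4 counts. 5mC is 100 times methylated over all CpG counts, in bins with at least 30 counts. Bins were grouped by H3K27ac of differentiated cells, and samples by their labels. Bin by bin, libraries were compared with Fisher's exact test (two-sided, Benjamini-Hochberg over all bins tested). A call needed an adjusted p under 0.05 and, where replicates were summed, every library of one side above every library of the other. The test was checked on simulated independent binomial counts. These had no linked CpGs within reads and no spread between libraries, so the check cannot show how the test behaves with them. Bins are not replicates, so no test was run across them.

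Named bins had at least 100 counts in H3K27ac and 30 in both H3K4me1 libraries, and were the 4 with most counts, the 4 largest rises and falls that passed, the 3 lowest and 3 highest in H3K4me1, the 4 lowest and highest in XEN libraries labelled H3K27ac with at least 30 counts in each XEN library, and the longest run. The members and lists were chosen with earlier results of these data known. The alternatives were minimums of 20 and 60 counts, 70% 5mC, 1 bin per host peak, leaving out bins in the top 1% of counts of any library, testing only bins of H3K27ac peaks, a difference above 20 points, leaving out each XEN replicate, the replicate number as a stratum and relative distance. The exchange of XEN marks, and 1 bin per peak in the other classes, were added after seeing the data. XEN replicate numbers are shared by label only, and the sources used here do not say that they pair libraries. The deviations of same-numbered libraries had a correlation of -0.009 over 14551 bins, which cannot show whether they shared a culture. No genome or annotation of mm9 was used here, so bins are placed in no gene and no sequence is shown. Input, H3K36me3 and single-cell RNA samples were not analysed here. Values were computed with Python 3.11.15, numpy, pandas, scipy and numba.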

Additional observations from a re-analysis of the deposited data

How the results depend on the processing

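The number of bins and their share of covered bins moved most with the count minimum. With at least 20 counts there were 54205 bins (23.6%), with at least 60 there were 3093 (4.06%), and with a threshold of 70% 5mC there were 12050 (7.93%). Without bins in the top 1% of counts the share was 13.5%. The share at 60% or more in H3K4me1 was 85.8% and 87.4% under the 2 minimums, 95% with the 70% threshold and 83.4% with 1 bin per host peak. In the same order the share in an H3K4me1 peak was 89.8%, 99.4%, 93.4% and 94.0%. The share in an H3K27ac peak of ESCs was 52.6% with 60 counts and 52.6% with 1 bin per peak. The median distance from the centre was 1174.5 bp and 1408.5 bp under the minimums, 1454.5 bp with the 70% threshold and 745.5 bp with 1 bin per peak, the largest change.

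The median in H3K4me1 of differentiated cells was 72.9% and 70.6% under the minimums, 76.3% with 70% and 70.3% with 1 bin per peak. In ESCs the median in H3K4me1 was 44.8% and 35.3% under the minimums and 44.8% with 70%. The median in H3K27ac of ESCs depended most on the minimum, at 36% with 20 counts, 18% with 60 and 32.6% with 70%. XEN medians moved by more than the small spread of replicates. With labels H3K4me1 they were 80% and 76.1% under the minimums, 82.4% with 70% and 77.4% with 1 bin per peak, and with labels H3K27ac 80.6%, 78.2%, 82.9% and 78.5%. Leaving out a replicate gave 78.6% to 79.4% and 79.5% to 79.6%.

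For H3K4me1 of differentiated cells against ESCs, the bins higher were 15113 with 20 counts and 748 with 60 (58.3% and 81.7% of bins tested, with 39.5% and 61.0% over all bins). With 70% they were 3339 and with 1 bin per peak 2946 (70.7% and 66.2%, with 47.7% over all bins). Lower were 55 with 20 counts, 6 with 60 and 3 with 70% (0.212%, 0.655% and 0.0635%, with 1.62%, 2.06% and 1.84% over all bins). Without the top 1%, 9 were lower, and with a difference above 20 points 11 (0.114% and 0.122%, with 1.76% and 1.54%). For XEN against differentiated cells in H3K4me1, 146 were higher with 60 counts, 271 with 70% and 297 with 1 bin per peak (9.38%, 3.83% and 5.13%, with 8.53%, 4.73% and 4.73% over all bins). Without replicate 1, 183 were higher, and without replicate 2, 94 (3.60% and 2.56%, with 3.71% and 2.79%). These shares were near those of all bins. Lower were 33, 49 and 63 in the first 3 of these settings (2.12%, 0.693% and 1.09%, with 5.12%, 1.81% and 1.81%). Without replicates 1 and 2, 43 and 36 were lower (0.847% and 0.981%, with 1.92% and 2.25%). With the marks exchanged, an alternative chosen after seeing the data, 2326 were higher (13.0%, with 13.5% over all bins). Between XEN marks, 13 were higher with 20 counts and 3 with 1 bin per peak (0.0376% and 0.0503%, with 0.0295% and 0.0453% over all bins). Without replicate 1, 1 was higher, and without replicate 2, 3 were (0.0196% and 0.0839%, with 0.0375% and 0.0459%). With the replicate number as a block, 1 was higher and 43 were lower (0.00757% and 0.326%, with 0.0198% and 0.718%). Lower were 22 with 60 counts, 28 with 70% and 35 with 1 bin per peak (1.32%, 0.372% and 0.587%, with 4.19%, 0.998% and 0.998% over all bins). Without replicates 1 and 2, 13 and 16 were lower (0.255% and 0.448%, with 0.892% and 1.05%). For XEN against ESCs in H3K27ac, 8179 were higher with 20 counts and 201 with 60 (81.8% and 88.2% of bins tested, with 62.2% and 78.0% over all bins). With 70% they were 1271 and with 1 bin per peak 1390 (90.3% and 90.3%, with 67.0% over all bins). Lower were 15, 1, 2 and 3 in that order (0.150%, 0.439%, 0.142% and 0.195%, with 0.463%, 0.189%, 0.357% and 0.357%). Without replicates 1 and 2, 2 and 3 were lower (0.0869% and 0.149%, with 0.409% and 0.453%), and with the marks exchanged 3 (0.122%, with 1.28%). Between ESC marks, 8 were higher with 20 counts, 1 with 60, 1 with 70%, 0 with 1 bin per peak and 1 without the top 1%. The shares were 0.0681%, 0.433%, 0.0593%, 0% and 0.0377%, with 0.0678%, 0.293%, 0.0853%, 0.0853% and 0.0813% over all bins. Lower were 5 with 20 counts (0.0426%, with 0.0137%). None was lower with 60 counts, with 1 bin per peak or when only bins of H3K27ac peaks were tested (0.0272%, 0.0146% and 0.00784% over all bins tested). The replicate block changed no other result, since it applies only between the XEN marks.

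Depth limits what can be said. The count minimum keeps bins with many CpGs or much signal, XEN files list no bin under 4 counts, and ESCs and differentiated cells have 1 count file per mark, of an unstated number of repeats, so no difference can be set against replicate error. Intervals cover counting error only, and they and the tests take each CpG count as independent. CpGs of 1 read are not independent, and reads without molecular identifiers are not independent molecules, so intervals and p-values understate the error. Between XEN replicates the mean chi-square per bin was 1.31 in libraries labelled H3K27ac and 1.24 in those labelled H3K4me1, above that of independent counts.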
